A study of Homo sapiens with 15 samples.

Results

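The NRF2 antioxidant genes described here are 9 genes: NFE2L2 and KEAP1, which encode the transcription factor NRF2 and its main inhibitor, and 7 genes widely used as NRF2 targets (GCLC, GCLM, SLC7A11, TXNRD1, SRXN1, NQO1 and HMOX1). They were taken by symbol from the 60649 genes of the raw count table, and all 9 were found. The mRNA came from K-562 cells, an established human line of chronic myeloid leukaemia labelled as bone marrow, which carries the BCR-ABL fusion. Cells were left untreated or were exposed for 24 h to 0.15, 0.25, 0.5 or 1 µM martinostat, an inhibitor of histone deacetylases. There were 3 libraries, labelled as biological replicates, in each of the 5 groups and 15 in all. All groups were the same parental line in the same medium, the labels name no second drug, and the treated groups differed only in dose, so that 1 cell line and 1 time point stand behind every value.

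NRF2 is a transcription factor of the cap'n'collar family that switches on genes of antioxidant defence. In resting cells KEAP1 holds NRF2 and hands it to a CUL3 ubiquitin ligase for destruction, and oxidants or electrophiles that modify KEAP1 let NRF2 protein accumulate. NRF2 then pairs with a small MAF protein on antioxidant response elements (AREs) near genes for glutathione synthesis, the thioredoxin system, quinone detoxification and heme breakdown. This control acts mainly on NRF2 protein, which mRNA counts do not show.

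Library totals ranged from 23755510 to 32805574 counts. Levels are given as CPM, the count relative to the library size, with sizes scaled by TMM (trimmed mean of M values). Changes are log2 fold changes with their standard error (SE) from edgeR. Adjusted p-values come from its quasi-likelihood test, after Benjamini-Hochberg, over all 23711 genes that passed the filter on low counts. A gene was called when this adjusted p was under 0.05. TMM factors were 0.784 to 0.828 in untreated libraries and 0.950 to 1.284 in treated ones, and across all tested genes the log2 fold change had a median of 0.28, 0.32, 0.34 and 0.32 at the 4 rising doses. Summed over 9 markers of K-562 cells, the level was 1850 to 1930 CPM in untreated libraries, 195 to 428 CPM at 0.5 µM and 266 to 502 CPM at 1 µM. HBE1 lay under 1 CPM throughout, and at 1 µM the erythroid factor GATA1 lay at 15.3 to 20.8 CPM, from 323 to 335 CPM in untreated cells. The summed level of 5 B cell markers was 2.36 to 4.95 CPM in untreated libraries (2 of them at 0) and 15.1 to 16.4 CPM at 1 µM. That of 3 T cell markers was 3.51 to 4.62 CPM without treatment (1 of them at 0), 15.6 to 22.6 CPM at 0.15 µM, 10.4 to 16.1 CPM at 0.25 µM and 1.85 to 4.32 CPM at 1 µM. That of 3 monocyte markers was 7.22 to 9.27 CPM without treatment and 24.6 to 32.6 CPM at 1 µM, but the markers went different ways: CSF1R had a mean of 0.457 and 25.9 CPM, and LYZ of 7.81 and 1.76 CPM. For 4 markers of fibroblasts and epithelium the sum was 152 to 171 CPM and 320 to 509 CPM, with COL1A1 at a mean of 4.36 and 398 CPM, EPCAM at 141 and 20.5 CPM, and COL1A2 at 18.9 and 9.7 CPM. The part of these marker changes in the values below was not tested. The third libraries at 0.25 and 0.5 µM stood apart from the other 13 on the third principal component (4.47% of the variance).

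Sequences upstream of the start sites are shown because the target genes are known for carrying AREs. The letters TGACNNNGC, the core of an ARE, were searched on both strands in the RefSeq windows of 250 bases before to 50 after each start (GRCh38.p14). Of 35116 such windows, 13.3% held the core. The table held 10 windows for 7 of the 9 genes, and SLC7A11 and HMOX1 had no entry. The core was present in 4 windows, of KEAP1, GCLM and TXNRD1, and these are the stretches around it, written 5′ to 3′ in the direction of the gene, with the core in capitals. The KEAP1 stretches lie at chr19:10502808-10502834 and chr19:10502785-10502811 (minus strand), that of GCLM at chr1:93909447-93909473 (minus strand) and those of TXNRD1 at chr12:104215671-104215697, chr12:104215762-104215788 and chr12:104286921-104286947 (plus strand).
KEAP1, 54 to 46 bases before a start: cttttattgTGACACGGCgggcgcccg
KEAP1, 31 to 23 bases before the same start: cccggctctGCTTAGTCAtggtgacct
GCLM, 34 to 26 bases before the start: acgatttctGCTTAGTCAttgtcttcc
TXNRD1, 99 to 91 bases before a start: cacgggctaTGACTTCGCtgttgtcac
TXNRD1, reaching the same start: cgtccttcgGCTCCGTCAgttcccaca
TXNRD1, 102 to 94 bases before another start: tggatttctGCTTTGTCAttctgactc

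KEAP1 and GCLM carried the same core on the opposite strand, GCTTAGTCA. The form TGACTCAGC, which NF-E2 family factors are known to bind, is a special case of the ARE core. It was in 0.561% of all windows and in 0 of these 10. The core was not found in the windows of NFE2L2 (2 windows), GCLC, SRXN1 and NQO1 or in the other window of KEAP1. A match is a string of letters and not a bound site, and AREs farther upstream lie outside these windows.

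At a martinostat dose of 1 µM, KEAP1, NQO1 and the cystine carrier gene SLC7A11 stood far below their untreated levels, the mean of NFE2L2 fell by 45.1% and that of GCLM fell by 45.4%, GCLC stood above its untreated level, and TXNRD1 and SRXN1 were not called. Of the 9 genes, 8 passed the filter on low counts and HMOX1 did not. At the 4 rising doses 6, 5, 6 and 6 of the 8 were called, where the share called among all tested genes was 51.2%, 62.3%, 66.9% and 66.2%. In the lower direction the counts were 6, 5, 5 and 5, against 19.4%, 24.8%, 27.6% and 27.5% of all tested genes. Among the 10128 tested genes averaging at least 10 CPM, a range that holds all of the 8 but SRXN1 and SLC7A11, 40.2%, 48.7%, 48.7% and 48.4% were called lower. In the higher direction the counts were 0, 0, 1 and 1, against 31.9%, 37.4%, 39.4% and 38.8% of all tested genes. Of those averaging at least 10 CPM, 21.1%, 22%, 26.6% and 26.5% were called higher. Treated and untreated libraries did not overlap for 7, 6, 6 and 7 of the 8, against 63.2%, 67.5%, 69.9% and 74.9% of all tested genes. The median log2 fold change of the 8 genes was -0.87, -0.71, -0.84 and -0.87. These 4 comparisons share the untreated libraries. Each library is a population of cells, so a lower level in every cell and a loss of the cells that carry the mRNA cannot be told apart.

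**Figure D1:**
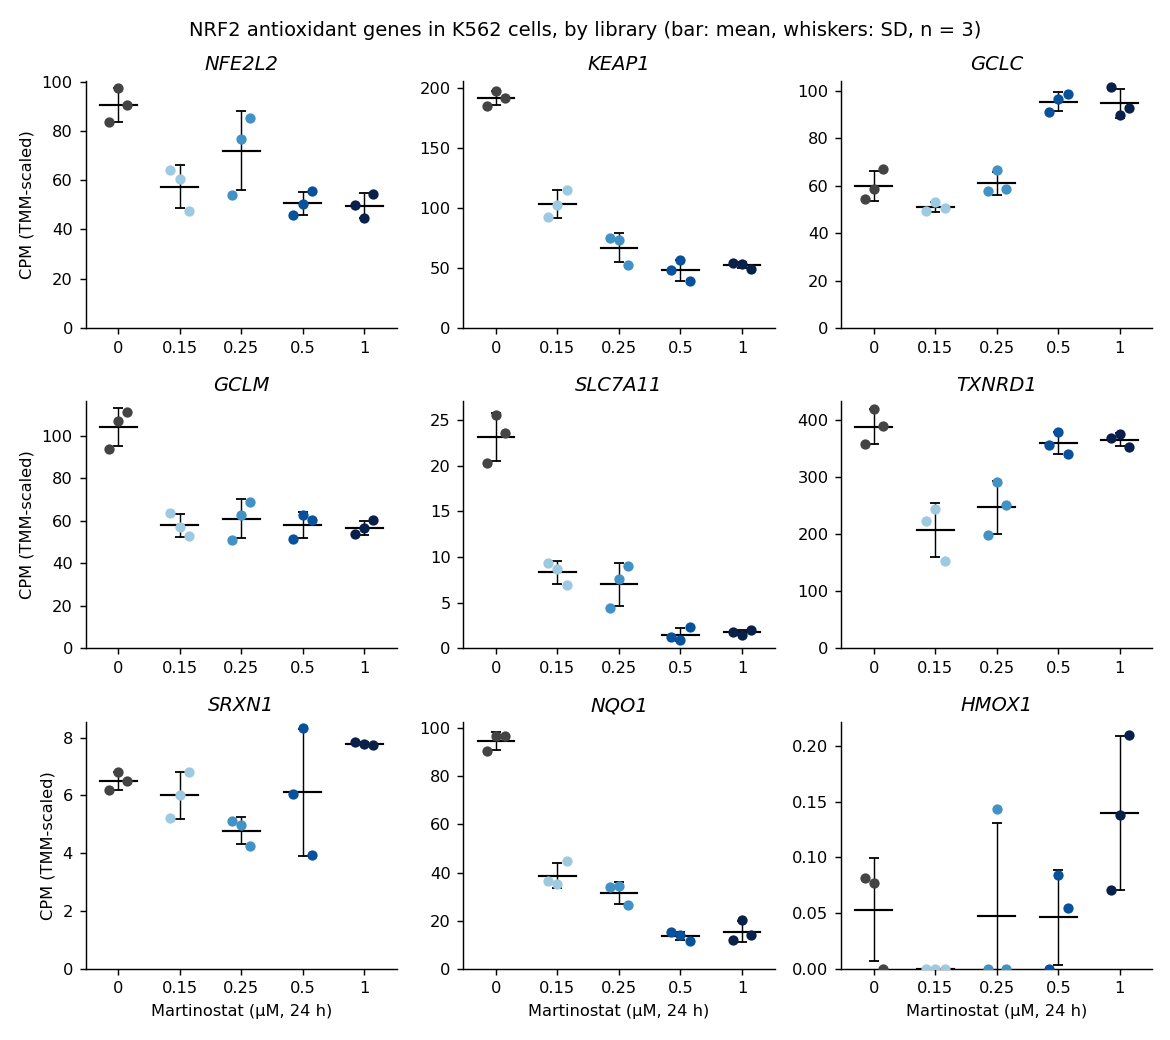
Level of each of the 9 genes (vertical axes, TMM-scaled CPM, linear from 0 and different for each gene) in the 15 libraries by martinostat dose (horizontal axes, µM, not to scale). Points are libraries, horizontal bars are means and whiskers are SD (n = 3). KEAP1, SLC7A11 and NQO1 step down to 0.5 µM and are near that level at 1 µM, GCLM drops once and stays there, GCLC is high at 0.5 and 1 µM, TXNRD1 is low at 0.15 and 0.25 µM, and HMOX1 is at or near 0 throughout.

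NFE2L2 (ENSG00000116044.16, minus strand of chromosome 2 at chr2:177218667-177392756 on hg38) encodes NRF2 itself. Its levels were 83.5, 97.6 and 90.3 CPM in the 3 untreated libraries, 64.0, 60.4 and 47.5 CPM at 0.15 µM, 54.1, 76.8 and 85.1 CPM at 0.25 µM, 45.8, 50.3 and 55.5 CPM at 0.5 µM and 50.01, 44.5 and 54.5 CPM at 1 µM. Untreated libraries lay above all treated ones except the third library at 0.25 µM. The gene was called lower at 0.15 µM (log2 fold change -0.66, SE 0.17, adjusted p = 0.00264), 0.5 µM (-0.84, SE 0.17, adjusted p = 0.000201) and 1 µM (-0.87, SE 0.17, adjusted p = 0.000149), a mean that fell by 45.1% at 1 µM. At 0.25 µM it was -0.33 (SE 0.16, adjusted p = 0.0906). Without the third library of that dose it was -0.47 and called. With library totals alone as the scaling, the value at 0.15 µM was -0.29 and that at 0.5 µM -0.44, and neither was called. On the deposited FPKM, where limma gave -0.14 and -0.40 at 1 µM with pseudocounts of 1 and 0.1, the 1 µM call was lost too.

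KEAP1 (ENSG00000079999.14, minus strand, chr19:10486125-10503558) encodes the adaptor that targets NRF2 for destruction. Its untreated levels were 185, 198 and 192 CPM. They were 92.1, 103 and 115 CPM at 0.15 µM, 74.7, 73.2 and 52.8 CPM at 0.25 µM, 48.1, 57.0 and 39.0 CPM at 0.5 µM and 54.0, 53.1 and 49.3 CPM at 1 µM. Every treated library lay below every untreated one. On the log2 scale it changed by -0.89 (SE 0.16, adjusted p = 0.000114), -1.52 (SE 0.16, adjusted p = 1.63e-07), -2.0 (SE 0.16, adjusted p = 3.17e-09) and -1.88 (SE 0.16, adjusted p = 6.94e-09) at the 4 rising doses, so that the mean fell by 46.1% at the lowest dose and fell by 72.8% at the highest. All 4 were called in each alternative tried.

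The ratio of KEAP1 to NFE2L2 counts within a library does not depend on how libraries are scaled. It was 2.22, 2.03 and 2.12 in untreated libraries, 1.44, 1.70 and 2.42 at 0.15 µM, 1.38, 0.953 and 0.620 at 0.25 µM, 1.05, 1.13 and 0.702 at 0.5 µM and 1.08, 1.19 and 0.905 at 1 µM. Untreated libraries and those at 0.15 µM overlapped, and the libraries at the 3 higher doses lay below all untreated ones. The mean was 2.12 ± 0.0966 (SD, n = 3) without treatment and 1.06 ± 0.145 (SD, n = 3) at 1 µM. An exact two-sided permutation test of 3 against 3 libraries cannot go below p = 0.1, and that was its value at each of the 3 higher doses (0.114 after adjustment over 8 tests of 2 ratios), with p = 0.4 at 0.15 µM.

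Glutathione synthesis starts with glutamate-cysteine ligase, whose catalytic subunit is encoded by GCLC and whose modifier subunit by GCLM. GCLC (ENSG00000001084.13, minus strand, chr6:53497341-53616970) had 54.3, 58.8 and 67.0 CPM in untreated libraries, 49.4, 53.4 and 50.7 CPM at 0.15 µM, 57.8, 66.8 and 58.7 CPM at 0.25 µM, 91.0, 96.8 and 98.6 CPM at 0.5 µM and 102, 89.9 and 92.8 CPM at 1 µM. All libraries at the 2 higher doses lay above all others. At 0.5 µM it changed by 0.67 on the log2 scale (SE 0.12, adjusted p = 0.000102). At 1 µM the change was 0.66 (SE 0.12, adjusted p = 0.000121), with a mean 57.9% above the untreated one. Lower doses gave -0.23 (SE 0.12, adjusted p = 0.129) and 0.03 (SE 0.12, adjusted p = 0.871). The 0.25 µM value depended on the processing. It was called higher in 5 of 18 alternatives, among them library totals alone (0.55). At 0.15 µM library totals turned the sign, to 0.13, and DESeq2 called the gene lower (-0.28).

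GCLM (ENSG00000023909.10, minus strand, chr1:93885199-93909456) is the gene of the modifier subunit. Its levels were 93.9, 107 and 111 CPM in untreated libraries, 63.4, 57.2 and 52.8 CPM at 0.15 µM, 50.9, 62.9 and 68.8 CPM at 0.25 µM, 51.2, 62.8 and 60.6 CPM at 0.5 µM and 53.7, 56.5 and 60.2 CPM at 1 µM. All treated libraries lay below the untreated ones, and the treated groups overlapped each other. The log2 fold changes were -0.85, -0.77, -0.84 and -0.87 (SE 0.14 each, adjusted p = 6.04e-05, 0.000105, 3.7e-05 and 2.32e-05). Between the highest and the lowest dose the difference was -0.03 with a 95% interval of -0.32 to 0.27. The call at 0.25 µM was lost with library totals alone (-0.23) and with limma on FPKM (-0.19 and -0.25 with pseudocounts of 1 and 0.1).

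The count of GCLC over that of GCLM in the same library was 0.578, 0.550 and 0.602 in untreated cells. It was 0.778, 0.932 and 0.961 at 0.15 µM, 1.14, 1.06 and 0.853 at 0.25 µM, 1.78, 1.54 and 1.63 at 0.5 µM and 1.89, 1.59 and 1.54 at 1 µM. Each treated library lay above all untreated ones, and the means were 0.577 ± 0.0259 (SD, n = 3) and 1.68 ± 0.190 (SD, n = 3) at the extremes of dose. The exact two-sided permutation p was 0.1 at each dose, the lowest that 3 against 3 libraries allow (0.114 adjusted over the 8 tests).

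**Figure D2:**
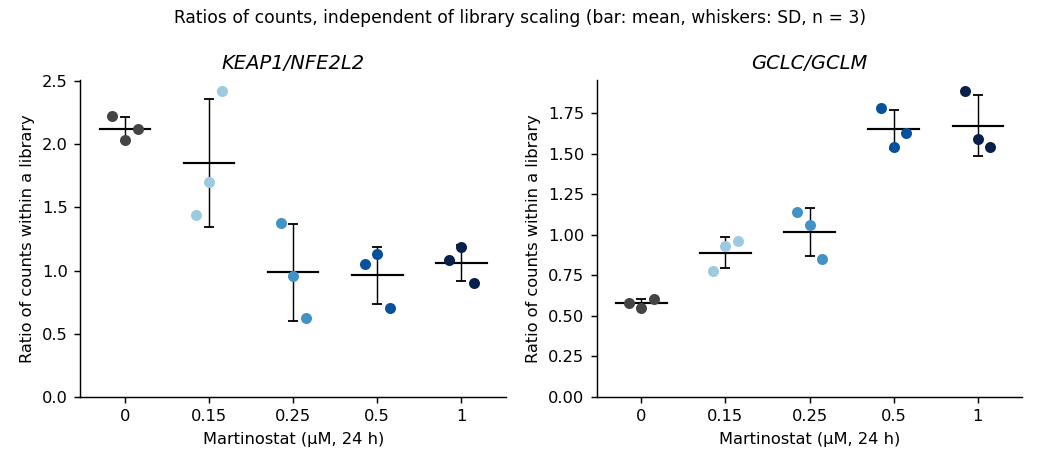
Ratio of KEAP1 to NFE2L2 counts (left) and of GCLC to GCLM counts (right) within each library, on linear axes from 0, by martinostat dose (µM, not to scale). Points are libraries, bars are means and whiskers are SD (n = 3). The left ratio goes from a mean of 2.12 to 1.06 between untreated cells and 1 µM, and the right one from 0.577 to 1.68.

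SLC7A11 (ENSG00000151012.13, minus strand, chr4:138164097-138242349) encodes the xCT subunit of the carrier that brings in cystine for glutathione synthesis. Untreated libraries had 20.3, 25.5 and 23.6 CPM. The values were 9.32, 8.72 and 6.95 CPM at 0.15 µM, 4.41, 7.62 and 9.01 CPM at 0.25 µM, 1.28, 0.920 and 2.34 CPM at 0.5 µM and 1.74, 1.45 and 2.06 CPM at 1 µM. The counts behind the last 2 doses were 22 to 86 per library, against 496 to 661 in untreated cells. The libraries fell into 3 bands that did not overlap: untreated, the 2 lower doses and the 2 higher doses. At the rising doses the change was -1.47 (SE 0.28, adjusted p = 0.000219), -1.72 (SE 0.28, adjusted p = 3.21e-05), -3.89 (SE 0.32, adjusted p = 3.12e-09) and -3.72 (SE 0.31, adjusted p = 4.88e-09), and the mean fell by 92.4% at 1 µM. All 4 calls held in each alternative.

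TXNRD1 (ENSG00000198431.16, plus strand, chr12:104215779-104350307) encodes cytosolic thioredoxin reductase, which keeps thioredoxin reduced with NADPH. It had 357, 419 and 389 CPM in untreated libraries, 223, 245 and 153 CPM at 0.15 µM, 198, 291 and 252 CPM at 0.25 µM, 357, 380 and 341 CPM at 0.5 µM and 369, 375 and 353 CPM at 1 µM. The 6 libraries of the 2 lower doses lay below all the others, and those of the 2 higher doses overlapped untreated cells. The log2 fold change at 0.15 µM stood at -0.91 (SE 0.17, adjusted p = 0.000234), and at 0.25 µM -0.65 (SE 0.17, adjusted p = 0.00289). It was -0.11 (95% interval -0.47 to 0.25, adjusted p = 0.575) at 0.5 µM and -0.09 (95% interval -0.45 to 0.27, adjusted p = 0.671) at 1 µM. The 0.25 µM call was lost with library totals alone (-0.13), with TMM factors taken over genes of 10 CPM or more (-0.23) and with limma on FPKM.

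SRXN1 (ENSG00000271303.2, minus strand, chr20:646615-653200) encodes sulfiredoxin, which repairs overoxidised peroxiredoxins. It had 6.18, 6.80 and 6.50 CPM in untreated libraries, 5.20, 6.00 and 6.81 CPM at 0.15 µM, 5.12, 4.97 and 4.26 CPM at 0.25 µM, 6.05, 8.33 and 3.94 CPM at 0.5 µM and 7.84, 7.77 and 7.74 CPM at 1 µM. It was not called at any dose, with log2 fold changes of -0.11, -0.44, -0.09 and 0.26 (SE 0.23 each). At 1 µM, where the 95% interval was -0.22 to 0.74, the gene was called higher with library totals alone (0.62), with TMM factors taken over genes of 10 CPM or more (0.64), with at least 10 counts required in every library (0.54) and with limma on FPKM (0.30 and 0.56 with pseudocounts of 1 and 0.1). Of its exon bases 90.7% are shared with a readthrough gene on the same strand, which leaves 236 bases of its own, so its values are uncertain.

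NQO1 (ENSG00000181019.13, minus strand, chr16:69706996-69726668) encodes a quinone reductase and is a usual reporter of NRF2 activity. It had 90.3, 96.8 and 96.5 CPM in untreated libraries, 36.3, 35.2 and 44.6 CPM at 0.15 µM, 34.0, 34.4 and 26.3 CPM at 0.25 µM, 15.2, 14.0 and 11.6 CPM at 0.5 µM and 11.8, 20.2 and 14.1 CPM at 1 µM. The libraries of untreated cells, of 0.15 µM, of 0.25 µM and of the 2 higher doses together formed 4 bands that did not overlap. Its change on the log2 scale came to -1.29 (SE 0.18, adjusted p = 8.74e-06), -1.58 (SE 0.18, adjusted p = 4.8e-07), -2.80 (SE 0.19, adjusted p = 2.78e-10) and -2.62 (SE 0.19, adjusted p = 6e-10), and the mean fell by 83.7% at 1 µM. The calls held in each alternative. An exon on the opposite strand covers 22.8% of the bases of its main (MANE Select) transcript.

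HMOX1 (ENSG00000100292.18, plus strand, chr22:35380361-35394214) encodes the inducible heme oxygenase, which breaks heme down to biliverdin, iron and carbon monoxide. It was at 0 in 7 libraries, among them all 3 at 0.15 µM, and had 2 to 6 counts in the other 8, a sum of 24 counts over all 15. The highest level was 0.209 CPM, in a library at 1 µM. A level of 0 allows up to 3 counts, or 0.0751 to 0.132 CPM depending on the library, for counting error alone. At 1 µM the libraries had 2, 4 and 6 counts. HMOX1 was not tested at any dose, and no fold is given.

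Across genes, levels can be compared per length of the MANE Select transcript. In untreated cells TXNRD1 stood highest at 101 ± 7.99 CPM per kb, followed by KEAP1 at 74.7 ± 2.42, NQO1 at 37.5 ± 1.46, NFE2L2 at 37.0 ± 2.87, GCLM at 21.3 ± 1.84, GCLC at 15.9 ± 1.70 and SLC7A11 at 2.40 ± 0.275 CPM per kb (SD, n = 3). NQO1 and NFE2L2 differed by less than their SD. All annotated exons of NFE2L2 together cover 14975 bases, against 2446 in its MANE Select transcript. Of these 14975, 24.8% overlap genes on the opposite strand and 13.6% genes on the same strand. The place of NFE2L2 in the order is therefore uncertain. At 1 µM the order was TXNRD1 (94.7 ± 2.91), GCLC (25.0 ± 1.61), KEAP1 (20.3 ± 0.966), NFE2L2 (20.3 ± 2.05), GCLM (11.6 ± 0.670), NQO1 (6.10 ± 1.72) and SLC7A11 (0.181 ± 0.0314 CPM per kb; SD, n = 3), with KEAP1 and NFE2L2 within their SD of each other. All annotated exons together cover 8618 bases for GCLC and 3573 for KEAP1, against 3785 and 2565 in their MANE Select transcripts. The place of GCLC above KEAP1 at 1 µM is therefore uncertain too. SRXN1 was left out of this order because of its shared exons.

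Between neighbouring doses, most of the calls lay between 0.25 and 0.5 µM. From 0.15 to 0.25 µM, 1 of the 8 tested genes was called, against 12.3% of all tested genes: KEAP1, at a log2 fold change of -0.63 (SE 0.16, adjusted p = 0.0142). This call was lost without the third library of 0.15 µM (-0.50) or that of 0.25 µM (-0.48). From 0.25 to 0.5 µM, 6 of the 8 were called, against 30.4% of all tested genes. SLC7A11 (-2.18, SE 0.31, adjusted p = 2.38e-05), NQO1 (-1.22, SE 0.18, adjusted p = 4.95e-05), NFE2L2 (-0.51, SE 0.17, adjusted p = 0.0245) and KEAP1 (-0.48, SE 0.16, adjusted p = 0.0276) fell. GCLC (0.64, SE 0.12, adjusted p = 0.000553) and TXNRD1 (0.54, SE 0.17, adjusted p = 0.0224) rose. The calls of SLC7A11, NQO1 and GCLC held in 19 of 19 alternatives, while that of NFE2L2 was lost in 7, that of TXNRD1 in 6 and that of KEAP1 in 5. Without a single library, NFE2L2 lost its call when replicate 2 or 3 of 0.25 µM or replicate 1 or 2 of 0.5 µM was left out (-0.37 to -0.51), KEAP1 for replicates 1 and 2 of 0.25 µM and 1 and 3 of 0.5 µM (-0.35 to -0.48), and TXNRD1 for replicate 1 of 0.25 µM (0.40) and 2 of 0.5 µM (0.50). Of all tested genes 16% were called lower and 14.4% higher. The NFE2L2 and KEAP1 libraries of the 2 doses overlapped, and those of the other 4 called genes did not (38.6% of all tested genes did not overlap). From 0.5 to 1 µM, 0 of the 8 genes were called by edgeR, also at an unadjusted p under 0.05, as were 0 of all tested genes, where the unadjusted count was 372. Over the 5 groups together, 7 of the 8 were called (73.6% of all tested genes), with SRXN1 at an adjusted p of 0.111.

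Compared directly, 1 µM and 0.15 µM differed in 5 of the 8 genes, against 44.5% of all tested genes. SLC7A11 (-2.25, SE 0.30, adjusted p = 7.14e-06), NQO1 (-1.33, SE 0.18, adjusted p = 8.8e-06) and KEAP1 (-0.99, SE 0.16, adjusted p = 5.35e-05) were lower at the high dose. GCLC (0.89, SE 0.12, adjusted p = 1.08e-05) and TXNRD1 (0.82, SE 0.17, adjusted p = 0.000718) were higher. The shares of all tested genes were 23.1% lower and 21.5% higher. NFE2L2 (-0.21, 95% interval -0.55 to 0.14), GCLM (-0.03, 95% interval -0.32 to 0.27) and SRXN1 (0.37, 95% interval -0.11 to 0.86) were not called.

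**Figure D3:**
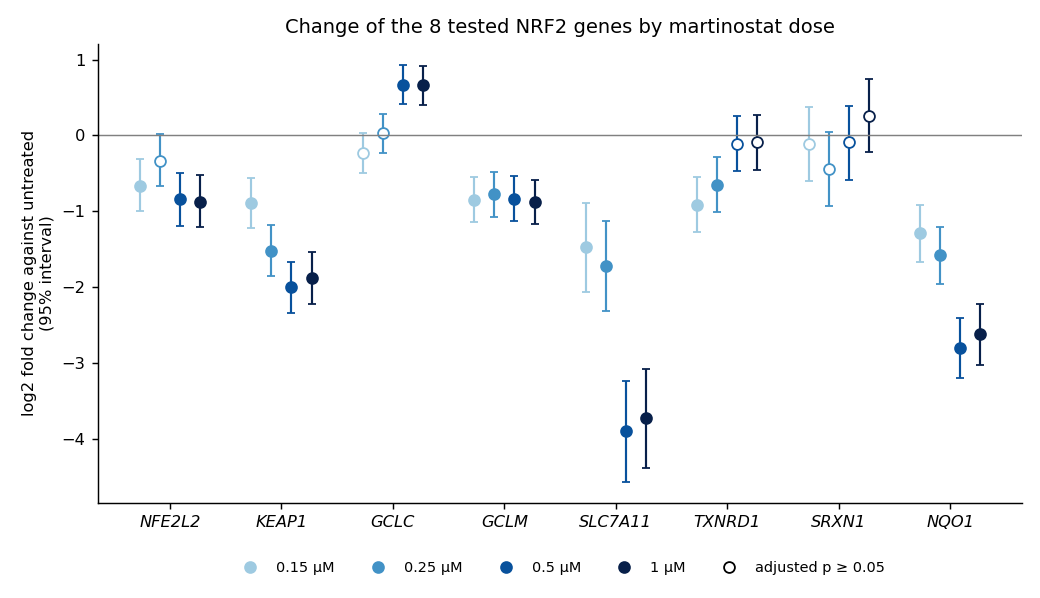
Log2 fold change against untreated cells (vertical axis) of the 8 tested genes at the 4 martinostat doses (colour), from edgeR. Points are estimates, lines 95% intervals (n = 3 libraries per group), and open points have an adjusted p of 0.05 or more. SLC7A11 and NQO1 reach -3.72 and -2.62 at 1 µM, GCLC crosses to 0.66, and TXNRD1 returns from -0.91 at 0.15 µM to -0.09 at 1 µM.

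A difference from the median gene is free of the scaling. Relative to the median of all tested genes, the log2 fold change at 1 µM was -4.04 for SLC7A11, -2.94 for NQO1, -2.20 for KEAP1, -1.19 for NFE2L2 and for GCLM, -0.41 for TXNRD1, -0.06 for SRXN1 and 0.34 for GCLC. Relative to the median of the 10128 genes averaging at least 10 CPM, which was itself -0.39, the values were -3.33, -2.23, -1.49, -0.48, -0.48, 0.30, 0.65 and 1.05 in the same order. The choice of the reference turned the sign for TXNRD1 and SRXN1 and for no other of the 8 genes at this dose.

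Other genes of the pathway were followed in 7 lists of 77 genes, of which 72 could be tested. At the 4 rising doses 21, 17, 21 and 20 of them were called higher. The shares called higher were 31.9%, 37.4%, 39.4% and 38.8% of all tested genes, and 21.1%, 22%, 26.6% and 26.5% of those averaging at least 10 CPM. In the lower direction there were 26, 28, 29 and 28 of the 72, while 19.4%, 24.8%, 27.6% and 27.5% of all tested genes were called lower, and 40.2%, 48.7%, 48.7% and 48.4% of those averaging at least 10 CPM. The counts of the single lists at 1 µM below stand beside the same shares, 38.8% higher and 27.5% lower, and beside the median of 0.32 over all tested genes. For genes averaging at least 10 CPM, a range that holds most of the list genes, these were 26.5%, 48.4% and -0.39, a reference that applies to each list below. The median log2 fold change over the 72 was -0.16, -0.20, -0.13 and -0.10. In the plot of the lists the detoxification enzymes are the list with the highest median and the other antioxidant enzymes that with the lowest.

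**Figure D4:**
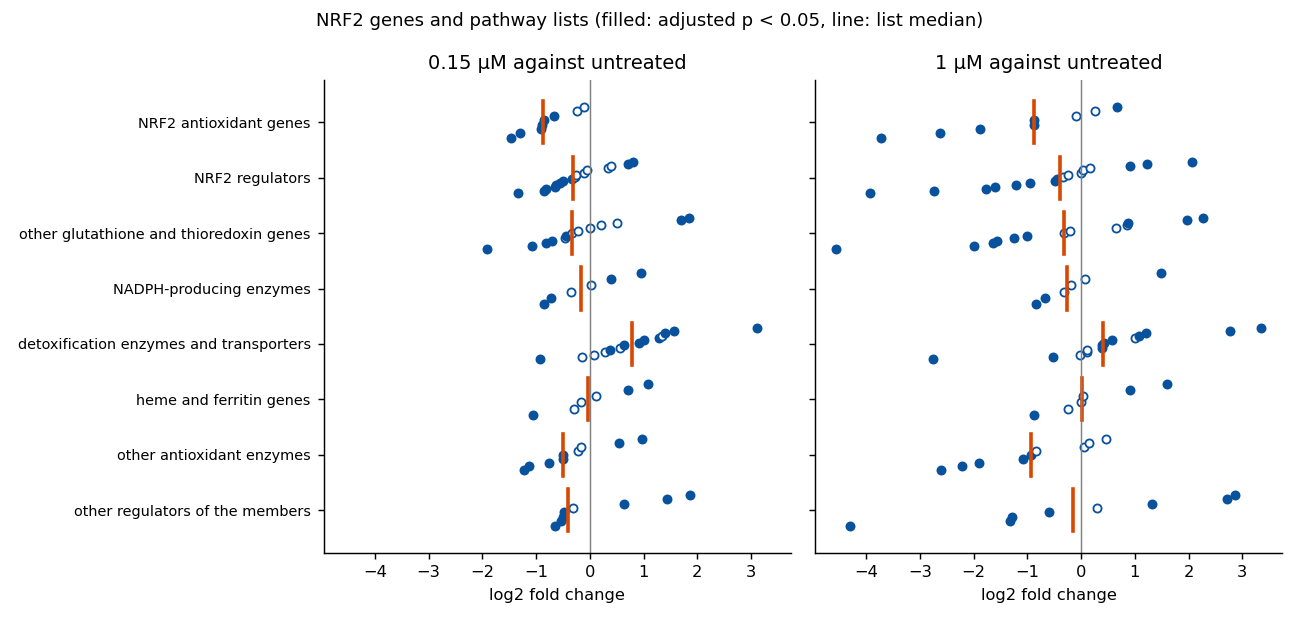
Log2 fold change against untreated cells (horizontal axis) at 0.15 µM (left) and 1 µM (right) for the tested genes of the NRF2 antioxidant set and of 7 pathway lists (rows). Each point is a gene, filled where the adjusted p was under 0.05, and the vertical line is the median of the list. At 1 µM the medians run from -0.93 for the other antioxidant enzymes to 0.41 for the detoxification enzymes and transporters, whose point at 3.35 is AKR1B1, a gene with 6 counts in all untreated libraries together.

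Regulators of NRF2 went both ways. Of 16 tested, 3 were called higher and 8 lower at 1 µM (38.8% and 27.5% of all tested genes), with a median of -0.40. SQSTM1, whose product p62 draws KEAP1 into autophagy, averaged 140 ± 6.26 CPM without treatment, 99.9 ± 6.94 CPM at 0.15 µM, then 590 ± 78.9 CPM at 1 µM (SD, n = 3). At 0.15 µM it was called lower (-0.49, SE 0.20, adjusted p = 0.0475), a call held in 6 of 18 alternatives, and higher at 1 µM (2.07, SE 0.21, adjusted p = 4.92e-08), and a gene on the opposite strand shares 55.7% of the bases of its main transcript. BACH2, a repressor of the same DNA elements, rose at 1 µM (1.22, SE 0.15, adjusted p = 1.18e-06). PGAM5, a mitochondrial phosphatase that binds KEAP1, fell (-2.73, SE 0.27, adjusted p = 9.44e-08). NFE2, the erythroid relative of NRF2, averaged 264 ± 6.01 CPM without treatment, 437 ± 86.6 CPM at 0.15 µM, then 17.4 ± 4.8 CPM at 1 µM (SD, n = 3). At 0.15 µM it was called higher (0.72, SE 0.19, adjusted p = 0.00304) and at 1 µM lower (-3.93, SE 0.21, adjusted p = 9.68e-12), and it is also 1 of the 9 K-562 markers above. Among all tested genes 1.97% were called in opposite directions at these doses and called between them, and 3 of the 72 list genes were (SQSTM1, NFE2 and ME1).

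Among 13 other glutathione and thioredoxin genes, 3 were called higher and 6 lower at 1 µM, against 38.8% and 27.5% of all tested genes (median -0.32). The glutathione transferase genes GSTA4 (5.63 ± 0.918 to 27.2 ± 2.94 CPM, 2.27, SE 0.17, adjusted p = 1.03e-09) and GSTM3 (5.24 ± 1.65 to 20.3 ± 0.698 CPM, 1.96, SE 0.20, adjusted p = 8.92e-08) rose. MGST1, a membrane-bound transferase, fell from 103 ± 6.71 to 4.35 ± 0.905 CPM (-4.56, SE 0.21, adjusted p = 1.45e-12). GSR, the reductase that returns oxidised glutathione to its reduced form, fell from 193 ± 13.1 to 48.4 ± 3.56 CPM (-1.99, SE 0.17, adjusted p = 4.53e-09; SD over n = 3 for each of these levels).

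Of 6 enzymes that supply NADPH, 2 were called lower at 1 µM, against 27.5% of all tested genes. Transketolase, encoded by TKT, fell (-0.67, SE 0.26, adjusted p = 0.0277), a call held in 9 of 18 alternatives. Malic enzyme ME1 was called higher at 0.15 µM (0.39, SE 0.16, adjusted p = 0.0449), where its libraries overlapped untreated ones and the call held in 10 of 18 alternatives, and lower at 1 µM (-0.85, SE 0.16, adjusted p = 0.000119), a call held in 16 of 18 alternatives.

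Of 14 tested detoxification enzymes and transporters, 8 were called higher and 2 lower at 1 µM, against 38.8% and 27.5% of all tested genes. Among genes averaging at least 10 CPM the shares were 26.5% and 48.4%. The list had a median of 0.41, beside 0.32 over all tested genes and -0.39 over those averaging at least 10 CPM. At 0.15 µM 8 were called higher, against 31.9% of all tested genes and 21.1% of those averaging at least 10 CPM. The 8 at 1 µM included 3 members of the AKR1C family, AKR1C1, AKR1C2 and AKR1C3, near copies whose reads can be hard to assign. OSGIN1, an oxidative stress-induced growth inhibitor, rose from 4.64 ± 0.691 to 31.7 ± 3.50 CPM (SD, n = 3; 2.77, SE 0.22, adjusted p = 2.88e-09). EPHX1, microsomal epoxide hydrolase, rose as well (1.21, SE 0.18, adjusted p = 9.98e-06). The export pump gene ABCC4 fell from 234 ± 23.2 to 34.4 ± 5.05 CPM (SD, n = 3; -2.76, SE 0.17, adjusted p = 5.8e-11), and UGDH, which makes UDP-glucuronate, fell by 0.52 on the log2 scale (SE 0.14, adjusted p = 0.00243), a call held in 13 of 18 alternatives.

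Of 6 heme and ferritin genes, 2 were called higher and 1 lower at 1 µM (38.8% and 27.5% of all tested genes). The ferritin light chain gene FTL went from 2169 ± 115 CPM without treatment to 6574 ± 2686 CPM at 1 µM (SD, n = 3; 1.60, SE 0.33, adjusted p = 0.000329). The heavy chain gene FTH1 rose too (0.90, SE 0.24, adjusted p = 0.00319), and 73.2% of the bases of its main transcript lie under a gene on the opposite strand. BLVRB, a biliverdin reductase, fell (-0.87, SE 0.33, adjusted p = 0.0281), a call held in 9 of 18 alternatives.

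Of 9 other antioxidant enzymes tested, 0 were called higher and 5 lower at 1 µM by edgeR, against 38.8% and 27.5% of all tested genes. The largest falls were in PRDX4, the peroxiredoxin of the endoplasmic reticulum (324 ± 5.46 to 53.3 ± 5.20 CPM, SD, n = 3; -2.60, SE 0.27, adjusted p = 1.52e-07), and TXNRD2, mitochondrial thioredoxin reductase (156 ± 6.55 to 33.8 ± 2.31 CPM, SD, n = 3; -2.21, SE 0.16, adjusted p = 5.92e-10). TXNRD2 was at -0.50 (SE 0.15, adjusted p = 0.0102) at 0.15 µM, a call held in 12 of 18 alternatives and lost, among others, without the second library of 0.15 µM (-0.41).

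Of 8 other transcriptional regulators known to act on these genes, 3 were called higher and 4 lower at 1 µM (38.8% and 27.5% of all tested genes). The AP-1 gene JUN rose from 33.5 ± 1.49 to 245 ± 6.94 CPM (SD, n = 3; 2.87, SE 0.14, adjusted p = 2.41e-12) and the stress factor gene ATF3 from 5.22 ± 0.332 to 34.3 ± 4.52 CPM (SD, n = 3; 2.72, SE 0.18, adjusted p = 2.06e-10). FOSL1, another AP-1 gene, fell from 28.3 ± 2.44 to 1.42 ± 0.336 CPM (SD, n = 3; -4.31, SE 0.29, adjusted p = 1.96e-10). ATF4, a factor of the amino acid response that is known to act on SLC7A11, fell from 382 ± 37.9 to 153 ± 39.6 CPM (SD, n = 3; -1.32, SE 0.19, adjusted p = 6.09e-06).

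As a description of pattern, with no test, the gene most like each of the 8 was found by the Pearson correlation of log2 CPM over the 15 libraries, which fall into 5 dose groups and share their scaling. It was TBC1D23 for NFE2L2 (0.968), PGAM1 for KEAP1 (0.995), MCL1 for GCLC (0.984), PSMD5 for GCLM (0.972), DSG2 for SLC7A11 (0.991), ZNF28 for TXNRD1 (0.981), SCAMP2 for SRXN1 (0.896) and PPT2 for NQO1 (0.992). Only tested genes with a symbol averaging at least 10 CPM could be chosen, which leaves out SRXN1 and SLC7A11. None of the 8 had another member in that range as its nearest gene.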

How the data were processed

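Poly(A) RNA libraries had been made with a directional kit and sequenced as paired ends. Per the labels and the methods of the study, reads were trimmed with Trim Galore 0.6.10, aligned to hg38 with HISAT2 2.2.1, handled with SAMtools 1.21 and counted per GENCODE gene with featureCounts 1.5.3, and the strand setting of the counting is not given in the sources used here. The deposited table holds raw counts of 60649 genes, and the authors also deposited FPKM values, which divide by the genomic span of a gene and by the library total. In the count table a value of 2 (50354 entries) was more frequent than 1 (30239), as when both mates of a pair are counted, so intervals and floors cover counting error only and may be too narrow.

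Symbols were matched to 99.7% of gene identifiers, and 1 of 86 listed symbols (SOD2) was not analysed here. Positions come from GENCODE release 44, and identifiers of NFE2L2 and TXNRD1 differ in version there. The 9 genes and the 77 genes of the lists were chosen with earlier results of these data known. From each list the text names, by a rule, up to 2 genes with the most positive and up to 2 with the most negative change at 1 µM among called genes averaging 10 CPM or more, and genes called with opposite signs at 0.15 and 1 µM; AKR1B1 and the AKR1C genes were named after their values were seen. Another gene that the rule picks is left out of the text.

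Counts were fitted with edgeR 4.0.16 (filterByExpr, TMM, robust quasi-likelihood F test) in R 4.3.3, with all 15 libraries and the group as the only term. The fit had 10 residual degrees of freedom, and the biological coefficient of variation was 0.228. The labels call the replicates biological, and the study describes them as independent experiments. All pairs of libraries within groups differed by more than sampling noise (chi-square per degree of freedom 6.14 or more). Same-numbered libraries deviated together only between 0.25 and 0.5 µM (correlations 0.266, 0.268 and 0.579), 1 of 10 pairs of groups. Alternatives were other scalings and filters, DESeq2 1.42.0, limma 3.58.1 on log2 FPKM, the replicate number as a block and leaving out each library. Ratios were tested with scipy 1.17.1.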

Additional observations from a re-analysis of the deposited data

Results flagged for a closer look

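The response at 1 µM differed from that at 0.15 µM, by edgeR's test between these groups, for 5 of the NRF2 antioxidant genes. The log2 difference, 1 µM minus 0.15 µM, was -0.99 for KEAP1, 0.89 for GCLC, -2.25 for SLC7A11, 0.82 for TXNRD1 and -1.33 for NQO1. Of the pathway genes named above, the 3 that were called in opposite directions at the 2 doses also differed between them, at 2.56 for SQSTM1, -4.65 for NFE2 and -1.24 for ME1. For SQSTM1 and ME1 the call at 0.15 µM was lost in some alternatives, while the difference between doses was called in 18 of 18. Single libraries were not tested for standing apart from their group, since each group held 3.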

How the results depend on the processing

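Of 35 calls among 64 tests of the 8 genes, 26 held in every alternative run, 9 were lost in some and 0 reversed. Of 1160 alternative values, 38 lost a call and 18 gained one. From 0.15 to 0.25 µM, the number of the 8 genes called (1) was 2 with TMM factors taken over genes of 10 CPM or more, 2 with at least 10 counts in every library, 2 with DESeq2, 0 with only the libraries compared, and 0 to 2 when 1 library was left out. From 0.25 to 0.5 µM it was 3 rather than 6 with only the libraries compared. Calls over all genes moved with the smaller set tested when 10 counts were required in every library, to 7517, 8851, 9784 and 9690 at the 4 doses, from 12148, 14761, 15872 and 15707. With only the libraries compared there were 1880 calls from 0.15 to 0.25 µM and 4794 from 0.25 to 0.5 µM, against 2911 and 7211. The cause was not tested, and the same 6 libraries of 0.25 and 0.5 µM gave 10002 calls with the replicate number as a block. The former count was 1740 to 2517 when 1 library was left out, with 1845, 1901 and 1740 without replicates 1, 2 and 3 of 0.15 µM. From 0.5 to 1 µM limma called 1 gene with either pseudocount. The share of calls that were higher at 0.15 µM was 62.2%, and 81.9% with library totals alone. Without replicate 3 of both 0.25 and 0.5 µM, an alternative chosen after seeing the data, NFE2L2 at 0.25 µM was called (-0.44).

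With the replicate number as a block in the fit of all libraries, the numbers of the 8 genes called were 6, 5, 6 and 6 at the 4 doses and 1, 6, 0 and 5 between doses. For 0.25 and 0.5 µM, where the numbers pair the libraries, a block within those 6 libraries, added after seeing the data, again called 6. Elsewhere the samples share only a number: 7 of 15 libraries correlated best with their own number. The block changed no call of the 8 genes. Depth limits HMOX1, and SRXN1 by its few unshared bases.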
